A study of Mus musculus with 12 samples.

Results

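The guanylate-binding proteins, the Gbp family, were followed in IEC4.1 cells, a line made from newborn mouse intestinal epithelium, as the members whose gene symbol in the deposited tables was one of Gbp2, Gbp2b, Gbp3, Gbp4, Gbp5, Gbp6, Gbp7, Gbp8, Gbp9 and Gbp10. Of these 10 genes, 9 were found among the 15002 genes of the tables, and Gbp8 was not analysed here. The study asked how the long non-coding RNA Nostrill bears on gene transcription stimulated by IFN-γ, and sequenced mRNA from 12 libraries, 3 in each of 4 groups. All cells were IEC4.1 cells that had taken up siRNA for 24 h. The siR_Ctrl group, wild type in the labels, received a scrambled siRNA, and the siR_Nostrill group, labelled as Nostril knockdown, received a pool of 3 siRNA duplexes against Nostrill. The groups siR_Ctrl + IFN-γ and siR_Nostrill + IFN-γ had in addition received IFN-γ at 1 ng/ml for 4 h by the study's methods, while the labels give 24 h for every library. The level of Nostrill was not analysed here, the knockdown was therefore not checked, and the groups are named by their labels.

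GBPs are large GTPases of the dynamin superfamily that interferons induce in many cell types. They assemble on the vacuoles of intracellular parasites and bacteria and on bacteria that reach the cytosol, help to break those membranes open and expose microbial ligands to inflammasomes. IFN-γ acts through the receptor pair Ifngr1 and Ifngr2 and the kinases Jak1 and Jak2, and the signal reaches gamma-activated sites (GAS) near the genes it induces. Among those genes is the transcription factor Irf1, which binds interferon-stimulated response elements (ISRE).

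The 9 genes lay in 2 clusters of the mouse genome (RefSeq annotation of GRCm38.p6). The cluster on chromosome 3 held Gbp5 at chr3:142496934-142522344, Gbp7 at chr3:142530336-142550151, Gbp3 at chr3:142560016-142573213, Gbp2b at chr3:142594816-142619179 and Gbp2 at chr3:142620663-142638008. The cluster on chromosome 5 held Gbp9 at chr5:105076464-105110357, Gbp4 at chr5:105115767-105139586, Gbp10 at chr5:105215699-105239533 and Gbp6 at chr5:105270702-105295871. These spans cover whole genes, introns and untranslated parts included, and the counts were made over their transcripts.

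Start-site sequences from RefSeq (GRCm38.p6) were matched for the 5 genes of chromosome 3, each window running from 250 bases before to 50 bases after an annotated start, on the plus strand. Windows were at hand for the chromosome 3 genes alone, although the members on chromosome 5 also rose with IFN-γ. The sequences printed are those that hold GAS or ISRE letters. Capitals mark GAS letters, which are TTC, then 3 bases of any kind, then GAA, and ISRE core letters, which are GAAA, then 2 bases of any kind, then GAAA, both searched on both strands. The ISRE core letters read here from the other strand, so they appear as TTTC, 2 bases and TTTC. Gbp5 (chr3:142496684-142496983) and Gbp7 (chr3:142530086-142530385) held 2 GAS and 1 ISRE core each, with no overlap between the motifs:

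Gbp5: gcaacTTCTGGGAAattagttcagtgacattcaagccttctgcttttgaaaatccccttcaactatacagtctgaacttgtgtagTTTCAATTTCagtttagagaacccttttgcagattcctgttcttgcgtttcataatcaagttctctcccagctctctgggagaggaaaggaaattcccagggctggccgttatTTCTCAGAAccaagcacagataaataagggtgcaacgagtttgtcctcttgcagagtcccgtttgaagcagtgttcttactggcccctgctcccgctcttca

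Gbp7: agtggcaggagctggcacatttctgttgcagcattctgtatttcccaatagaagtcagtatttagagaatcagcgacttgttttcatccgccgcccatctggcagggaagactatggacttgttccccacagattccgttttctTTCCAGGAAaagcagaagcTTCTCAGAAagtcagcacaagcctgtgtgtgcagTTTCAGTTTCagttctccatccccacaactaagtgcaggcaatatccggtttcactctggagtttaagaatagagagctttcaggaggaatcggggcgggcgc

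The window of the first Gbp3 start used here (chr3:142559794-142560093) held 2 ISRE cores that overlap each other, and those of Gbp2b (chr3:142594597-142594896) and Gbp2 (chr3:142620413-142620712) held 1 each:

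Gbp3: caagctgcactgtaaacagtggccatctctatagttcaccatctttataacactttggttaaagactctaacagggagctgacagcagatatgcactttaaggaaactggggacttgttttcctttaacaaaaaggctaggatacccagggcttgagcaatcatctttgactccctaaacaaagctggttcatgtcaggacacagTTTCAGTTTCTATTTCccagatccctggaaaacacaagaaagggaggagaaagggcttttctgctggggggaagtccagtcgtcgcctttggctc

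Gbp2b: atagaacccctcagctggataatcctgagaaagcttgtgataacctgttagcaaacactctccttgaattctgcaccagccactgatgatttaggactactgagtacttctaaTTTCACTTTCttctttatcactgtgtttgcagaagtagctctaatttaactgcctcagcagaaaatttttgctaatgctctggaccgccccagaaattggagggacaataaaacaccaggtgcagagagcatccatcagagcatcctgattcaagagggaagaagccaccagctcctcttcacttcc

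Gbp2: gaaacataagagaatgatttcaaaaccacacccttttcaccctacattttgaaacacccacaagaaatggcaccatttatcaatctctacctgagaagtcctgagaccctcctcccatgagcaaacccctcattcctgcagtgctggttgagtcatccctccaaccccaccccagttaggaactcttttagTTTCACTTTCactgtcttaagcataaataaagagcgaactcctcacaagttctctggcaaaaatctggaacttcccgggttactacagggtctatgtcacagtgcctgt

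The window of a second Gbp3 start (chr3:142560106-142560405) held none of these letters. The ISRE core of Gbp3 nearest its start began 39 bases before it, that of Gbp7 53 bases, that of Gbp2 59 bases, that of Gbp2b 137 bases and that of Gbp5 165 bases. For Gbp3 and Gbp2b the start used lies inside the gene span given above, so these distances depend on the start chosen. Among 32851 promoter windows of the same length in the mouse genome, 8.30% held GAS letters, 3.44% held the ISRE core and 0.454% held both. These shares are given for scale and were not tested against the Gbp windows. Windows were at hand for only part of the family, and the sequences printed were chosen for holding these letters. No excess of the letters in the family is therefore read from them. A match is a run of letters and not a measured binding site, and the windows of the 4 genes on chromosome 5 were not used here.

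**Figure D1:**
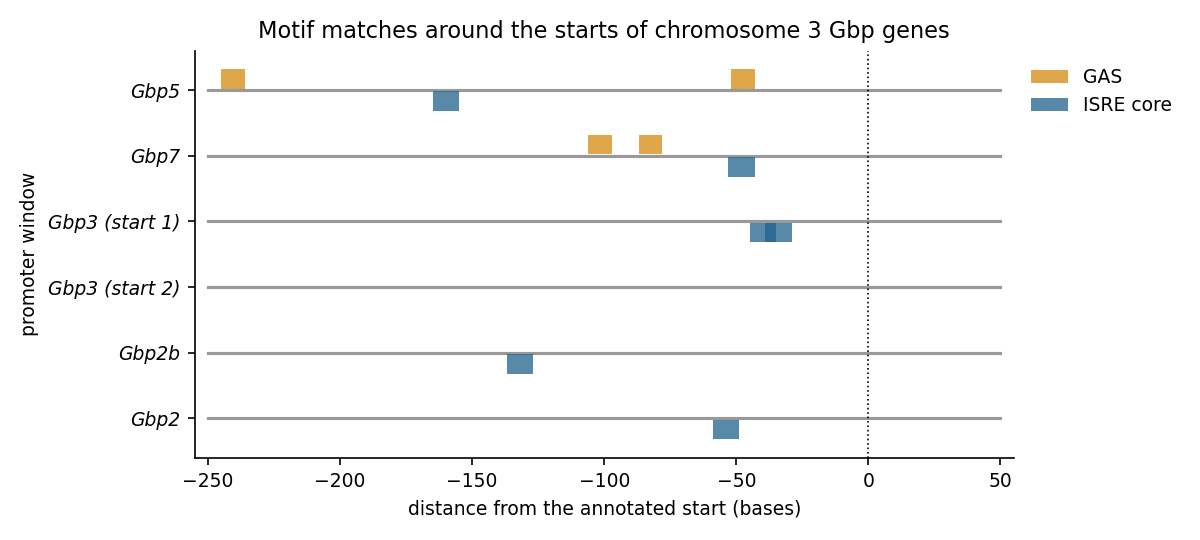
Positions of GAS letters (orange, above the line) and ISRE core letters (blue, below the line) in the promoter windows of the chromosome 3 Gbp genes, with distance in bases from the annotated start on the horizontal axis. The window of the second Gbp3 start is empty, and the first Gbp3 window shows its 2 overlapping ISRE cores 45 and 39 bases before the start.

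The label of intestinal epithelial cells was compared with marker genes. Of 17 epithelial markers, 10 were analysed, and 2 of them, Tjp1 (13.5 TPM, a level scaled for transcript length and library, as the mean of 12 libraries) and Krt19 (2.51 TPM), reached a mean of 1 TPM. The epithelial keratins Krt8 (0.238 TPM) and Krt18 (0.0558 TPM) and the brush-border gene Vil1 (0.0475 TPM) were near 0. The 10 fibroblast markers summed to between 2775 and 4206 TPM in a library, against 9.53 to 31.3 TPM for the epithelial list, and 8 of the 10 reached a mean of 1 TPM. Most of that sum was Vim, at a mean of 2512 TPM, and the collagen gene Col1a1 was at 336 TPM, while Lum (0.295 TPM) and Thy1 (0.0467 TPM) were near 0. These markers went against the epithelial label, and the cells are called IEC4.1 cells below. Of 15 immune markers, 9 were analysed and summed to 24.4 to 32.7 TPM, most of it Cd14, while the leukocyte gene Ptprc stood at 0.00417 TPM. The 4 endothelial markers analysed of 8 summed to 0.70 to 1.12 TPM. Reads counted on genes ranged from 17824306 to 19093204 per library, with a median of 18153496.

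Without IFN-γ, Gbp transcripts were scarce but present in every library. The 9 genes took 549 to 959 reads in a siR_Ctrl library, or 0.00301% to 0.00534% of all reads on genes. In siR_Ctrl cells, Gbp3 stood highest at 7.89 ± 2.02 TPM (SD, n = 3), then Gbp2 at 6.67 ± 2.63, Gbp2b at 4.17 ± 1.80 and Gbp9 at 1.86 ± 0.580. The remaining members were below 1 TPM, with Gbp7 at 0.783 ± 0.247 TPM, Gbp4 at 0.627 ± 0.169, Gbp10 at 0.233 ± 0.0961, Gbp6 at 0.170 ± 0.0346 and Gbp5 at 0.0567 ± 0.0306. Neighbours in this order whose ranges overlapped, and which the spread therefore did not separate, were Gbp3 with Gbp2, Gbp2 with Gbp2b, Gbp7 with Gbp4 and Gbp10 with Gbp6. Within each library, however, Gbp3 was above Gbp2 and Gbp2 above Gbp2b in 3 of 3. The first 6 places were the same in siR_Nostrill cells, where Gbp3 was at 9.98 ± 1.96 TPM, Gbp2 at 6.41 ± 0.890 and Gbp2b at 3.71 ± 0.947, with no overlap between these 3.

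IFN-γ raised every Gbp gene analysed in siR_Ctrl cells, and all 9 stood among the 50 most raised of 11900 genes tested. Rises ran from 4.08 (SE 0.14) on the log2 scale for Gbp9 to 7.74 (SE 0.21) for Gbp6, with adjusted p from 3.96e-10 to 1.97e-08 (edgeR quasi-likelihood test, Benjamini-Hochberg over all genes). Over all genes tested, 4.71% were called higher and 0.748% lower at an adjusted p below 0.05. Each of the 9 members was higher in TPM in every library with IFN-γ than in any without it, which held for 5.23% of all genes tested. The median log2 fold change of the 9 members was 6.65, beside -0.01 over all genes. In bulk RNA, more expressing cells and more RNA per cell cannot be told apart.

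**Figure D2:**
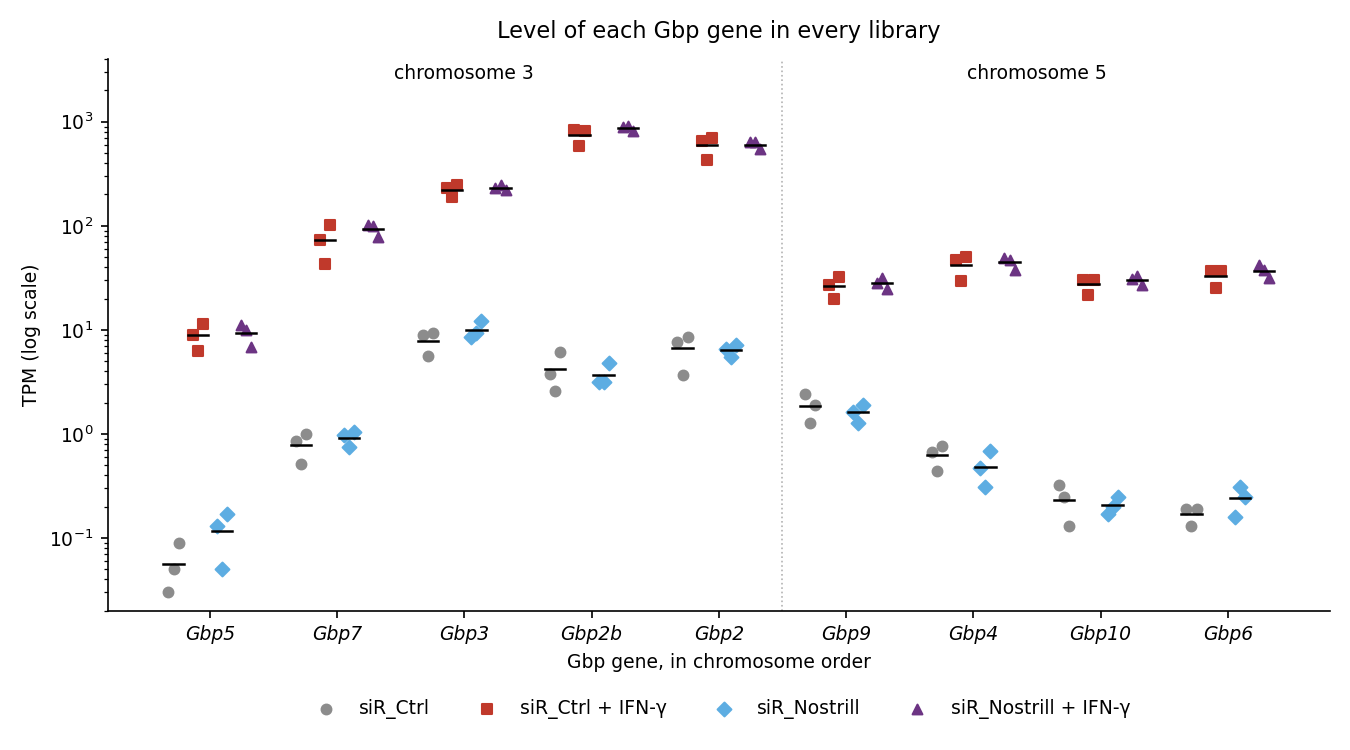
Level of each Gbp gene in TPM on a log axis, in chromosome order, with 1 point per library, 3 libraries per group and a black line at the group mean. For each of the 9 genes the 6 libraries with IFN-γ lie above the 6 without it, and siR_Ctrl and siR_Nostrill points overlap.

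Gbp2b, which was long called Gbp1, had the highest mean level of the family after IFN-γ. It measured 3.80, 2.58 and 6.13 TPM in the siR_Ctrl libraries and 828, 581 and 810 TPM in the siR_Ctrl + IFN-γ libraries. The groups did not overlap, and the lowest library with IFN-γ was still far above the highest without it. The log2 fold change was 7.61 (SE 0.29, adjusted p = 7.63e-09, edgeR). By mean TPM, Gbp2b ranked 197 among all 15002 genes of the tables after IFN-γ.

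Gbp2, a prenylated member that coats the vacuole of Toxoplasma in mouse cells, came next. Its siR_Ctrl libraries held 7.71, 3.67 and 8.62 TPM and its siR_Ctrl + IFN-γ libraries 651, 429 and 699 TPM. Replicate 2 was lowest in both groups, and the groups were well apart. The log2 fold change was 6.63 (SE 0.24, adjusted p = 5.23e-09, edgeR).

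Gbp3 was the member with the highest mean at rest. It was at 8.86, 5.56 and 9.24 TPM without IFN-γ and at 232, 187 and 247 TPM with it, a log2 fold change of 4.98 (SE 0.15, adjusted p = 1.58e-09, edgeR). In edgeR, Gbp9 alone of the 9 members had a smaller fitted rise, from 2.43, 1.27 and 1.89 TPM to 27.0, 20.01 and 32.5 TPM. Gbp3 and Gbp9 had ranked 1 and 4 in level before IFN-γ. The order of the rises did not hold with limma on log2(FPKM + 1), a scale that understates the change of low genes. There Gbp5 had the smallest rise at 2.77, Gbp9 was at 3.14, and Gbp3 at 4.68 was above Gbp10 at 4.13, Gbp4 at 4.42 and Gbp6 at 4.43.

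Gbp5, which in macrophages promotes assembly of the Nlrp3 inflammasome, was the scarcest member in all 4 groups. It had 1, 2 and 3 reads in the siR_Ctrl libraries and 321, 267 and 379 reads in the siR_Ctrl + IFN-γ libraries, or 0.0300 to 0.0900 TPM and 6.30 to 11.4 TPM. The reads of the 3 libraries together rose 163-fold for equal depth, with a 95% exact interval of 74.4 to 444 that covers counting error only. The fitted log2 fold change of 7.25 (SE 0.31) rests on those 6 reads at rest. Its SE is smaller than the counting interval alone implies, and so understates the error.

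Gbp7, a member known from mouse macrophages for defence against Toxoplasma and mycobacteria, was at 0.850, 0.510 and 0.990 TPM without IFN-γ and at 73.0, 42.7 and 102 TPM with it. Its siR_Ctrl + IFN-γ libraries spread more widely around their mean than those of the other members, with an SD of 29.7 TPM for a mean of 72.6 TPM. The log2 fold change was 6.65 (SE 0.25, adjusted p = 7.63e-09, edgeR), so the rise was many times the spread.

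On chromosome 5, Gbp4 went from 0.670, 0.440 and 0.770 TPM to 47.0, 29.7 and 50.6 TPM, a log2 fold change of 6.24 (SE 0.20). Gbp6 went from 0.190, 0.130 and 0.190 TPM to 37.1, 25.0 and 37.1 TPM, and Gbp10 from 0.320, 0.250 and 0.130 TPM to 30.3, 21.7 and 30.3 TPM, with log2 fold changes of 7.74 (SE 0.21) and 7.04 (SE 0.18). The 95% exact intervals for counting error, 147 to 336 fold for Gbp6 and 91.3 to 202 fold for Gbp10, are wider than these SEs imply. The groups were again separate for each gene. The split of reads between Gbp6 and Gbp10 is uncertain, since in GENCODE transcripts 82.9% of the 100-base windows of Gbp6 and 70.9% of those of Gbp10 also occur in another gene. Of the Gbp6 windows 44.2% occur in Gbp10, and the annotated gene Gm43302 holds 82.9% of the Gbp6 windows. Both genes had estimated counts that were not whole numbers in all 12 libraries. Counts that were not whole were not limited to genes with shared windows, since Gbp2 and Gbp2b, with 0% shared windows, had them in the 6 libraries with IFN-γ, while Gbp5, also with 0%, had whole counts in all 12. Shared windows made up 10.01% for Gbp7, 2.62% for Gbp4, 2.01% for Gbp9, 0.708% for Gbp3 and 0% for Gbp2 and Gbp2b.

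The order of the levels differed with IFN-γ. In siR_Ctrl + IFN-γ cells it ran from Gbp2b at 740 ± 138 TPM (SD, n = 3) through Gbp2 at 593 ± 144 and Gbp3 at 222 ± 31.1 to Gbp7 at 72.6 ± 29.7. Below these came Gbp4 at 42.4 ± 11.2 TPM, Gbp6 at 33.1 ± 6.97, Gbp10 at 27.4 ± 4.98, Gbp9 at 26.5 ± 6.27 and Gbp5 at 8.89 ± 2.57. The ranges of Gbp2b and Gbp2 overlapped, as did those of each neighbouring pair from Gbp7 down to Gbp9, while Gbp2 and Gbp3, Gbp3 and Gbp7, and Gbp9 and Gbp5 were separate. Within single libraries, the ratio of Gbp2b to Gbp2 in TPM was 0.482 to 0.711 in the 6 libraries without IFN-γ and 1.16 to 1.48 in the 6 with it. The ratio of Gbp2b to Gbp3 was 0.340 to 0.663 without IFN-γ and 3.10 to 3.80 with it. Neither ratio overlapped between libraries with and without IFN-γ, whichever siRNA they had received.

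Summed over the 9 genes, the family reached 1343 to 2021 TPM in siR_Ctrl + IFN-γ libraries from 14.5 to 28.1 TPM in siR_Ctrl libraries, and its share of reads went to 0.285% to 0.358%. Gbp3 made up 35.7% ± 2.76 (SD, n = 3) of the family's TPM in siR_Ctrl cells and 12.7% ± 1.08 in siR_Ctrl + IFN-γ cells. Gbp2b made up 18.3% ± 3.31 and 42.0% ± 1.71 in the same groups. The share of Gbp2 was 29.0% ± 3.17 and 33.4% ± 1.34, and that of Gbp9 was 8.43% ± 1.55 and 1.499% ± 0.106. The 5 genes of chromosome 3 held 85.5% to 89.4% of the family's TPM in siR_Ctrl libraries and 92.6% to 92.8% in siR_Ctrl + IFN-γ libraries.

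**Figure D3:**
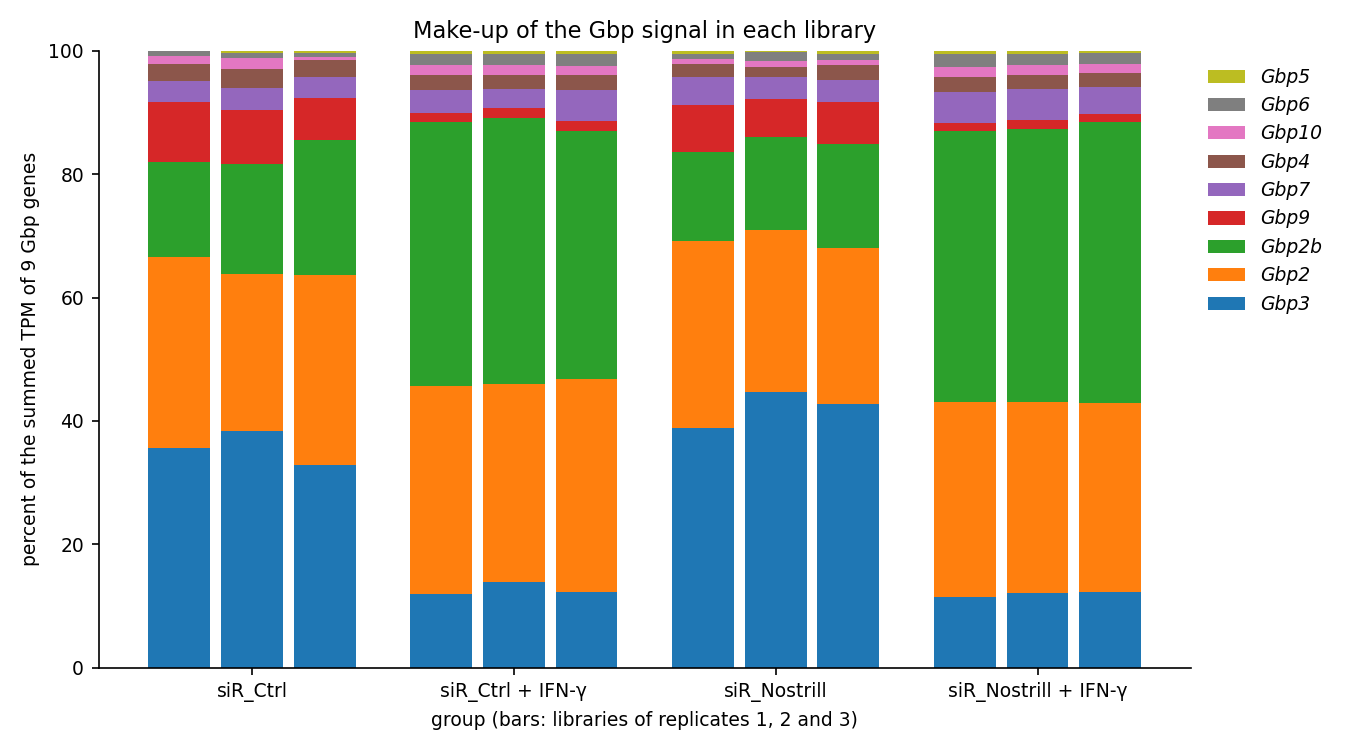
Share of each Gbp gene in the summed TPM of the 9 genes, 1 stacked bar for each of 12 libraries. Gbp3 (blue) takes 32.9% to 44.7% of the bars without IFN-γ and 11.5% to 14.0% of those with it, and Gbp2b (green) 14.5% to 21.9% and 40.1% to 45.5%.

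Libraries of a group differed for many members at once, to an extent that depended on the unit. Replicate 2 was the lowest of the siR_Ctrl + IFN-γ libraries for 9 of 9 members in TPM, where it was lowest for 75.7% of all genes tested. In CPM, which is scaled for library size adjusted by TMM and not for length, it was lowest for 6 of 9 members and 41.9% of genes, and highest for 1 of 9. It also had the lowest ratio of deposited TPM to FPKM, a unit scaled for length and mapped reads, of the 12 libraries, 1.26, where the highest was 1.75. In siR_Nostrill + IFN-γ cells, replicate 3 was lowest for 9 of 9 members and 63.2% of genes in TPM, and for 6 of 9 members and 38.6% of genes in CPM. Without IFN-γ, siR_Ctrl replicate 2 was lowest for 7 of 9 members in TPM and in CPM, beside 71.6% and 38.8% of genes. There siR_Ctrl replicate 3 was highest for 6 of 9 members in TPM and 7 of 9 in CPM, beside 13.7% and 16.4% of genes. In siR_Nostrill cells without IFN-γ, replicate 3 was highest for 8 of 9 members in TPM and for 5 of 9 in CPM, beside 72.6% and 40.8% of genes. The part of library preparation in these shifts was not tested, and all 9 rises were called with any 1 of the 12 libraries left out.

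IFN-γ also raised 9 of 9 members in siR_Nostrill cells, where 5.24% of genes tested were called higher and 1.55% lower. The rises ran from 4.01 (SE 0.14) for Gbp9 to 7.72 (SE 0.29) for Gbp2b on the log2 scale, with adjusted p from 4.34e-10 to 3.76e-08 (edgeR). Across genes, length and the log2 fold change with IFN-γ had a Spearman correlation of 0.48 here and -0.42 in siR_Ctrl cells. With this trend with gene length removed, 9 of 9 members were still called higher under each siRNA. In siR_Nostrill + IFN-γ libraries Gbp2b measured 881, 901 and 811 TPM, from 3.16, 3.16 and 4.80 TPM without IFN-γ. Gbp3 measured 232, 249 and 220 TPM, from 8.46, 9.30 and 12.2 TPM. Each member was again higher in TPM in every library with IFN-γ than in any without it, which here held for 20.3% of all genes tested. The order of the levels with IFN-γ was the same 9 places as in siR_Ctrl + IFN-γ cells, with Gbp2b first at 865 ± 47.1 TPM and Gbp5 last at 9.28 ± 2.18.

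**Figure D4:**
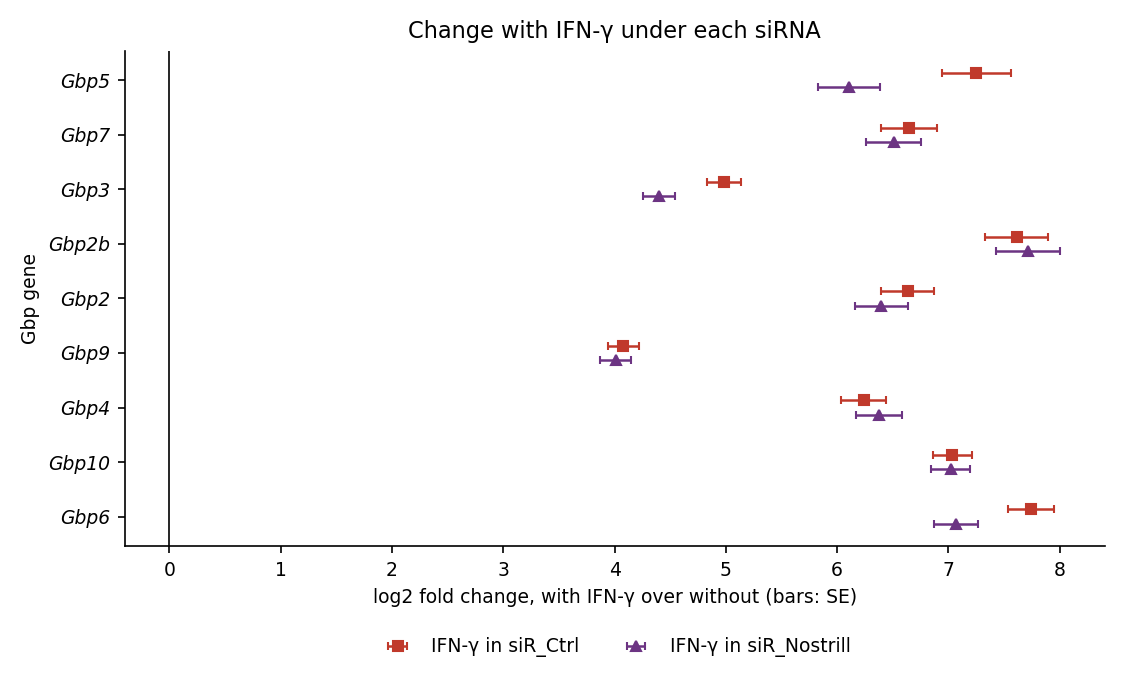
Fitted log2 fold change with IFN-γ of each Gbp gene in siR_Ctrl cells (squares) and siR_Nostrill cells (triangles), with bars of 1 SE. All points lie between 4.01 and 7.74, Gbp9 and Gbp3 lowest under both siRNAs. For Gbp5, Gbp6 and Gbp10 the bars are shorter than counting error on their few reads without IFN-γ implies.

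Whether the siRNA pool against Nostrill shifted the family was compared first without IFN-γ. Only 7 of the 9 members passed the low-count filter when these 2 groups were fitted alone, since Gbp5 and Gbp10 passed it through the libraries with IFN-γ. That fit called 0 of 7 members and 0 genes in all. The counts of 9 below include Gbp5 and Gbp10. In the fit of all 12 libraries no member was called, 0 of 9, where 0.218% of all genes tested were called and 13.8% had an unadjusted p below 0.05 (edgeR). Gbp3 was the 1 member with an unadjusted p below 0.05. That count was 5 of 9 without siR_Ctrl replicate 3, where 13.6% of genes were below that level and the members' median log2 difference was 0.44 in place of 0.15. With a trend with gene length removed it was 3 of 9, where 19.4% of genes were below that level. No member was called with any 1 library left out. That decides little for some fits, since no gene at all was called without siR_Ctrl replicate 1 or any 1 siR_Nostrill replicate. The same held without siR_Nostrill + IFN-γ replicate 2. The normalised counts of Gbp3 were 11.9, 10.4 and 15.7 CPM in siR_Ctrl cells and 16.2, 18.7 and 19.8 CPM in siR_Nostrill cells. The CPM ranges did not overlap, which held for 1 of 9 members and 18% of all genes tested. In TPM the ranges of Gbp3 overlapped, and 0 of 9 members and 11.4% of genes had ranges apart. The log2 difference was 0.52 (SE 0.14, 95% interval 0.22 to 0.82), with an adjusted p of 0.173 (edgeR). DESeq2 called Gbp3 with an adjusted p of 0.0175, in a test that called 2.56% of genes. Removing the length trend in edgeR gave an adjusted p of 0.0373, in a fit that called 3.46% of genes, and over all alternatives the adjusted p of Gbp3 ranged from 0.0175 to 0.544. Across genes, length and the log2 difference of this comparison had a Spearman correlation of -0.65, and Gbp3 stood at the 46.2 percentile of length.

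The other 8 members without IFN-γ gave log2 differences from -0.18 to 1.09. Gbp5 was at 1.09 (SE 0.61, adjusted p = 0.39, edgeR), on 1, 2 and 3 reads in siR_Ctrl cells and 5, 2 and 6 reads in siR_Nostrill cells. It was tested here only because it is high with IFN-γ, and limma on log2(FPKM + 1), a scale that flattens levels this low, gave 0.063. Gbp6 was at 0.70 (SE 0.30, adjusted p = 0.36, edgeR), from 7.05 to 9.60 reads and 8.49 to 18.0 reads. It was at 0.40 without siR_Nostrill replicate 2, at 0.95 without siR_Nostrill replicate 1 and at 0.087 on the same flattening limma scale. Neither passed the threshold, and both rest on few reads, so these SEs may also understate the error. Gbp7 was at 0.42 (SE 0.25, adjusted p = 0.41, edgeR), and with the length trend removed at 0.64 (SE 0.21, adjusted p = 0.12). Gbp9 was at 0.06 (SE 0.14, adjusted p = 0.81, edgeR), and with the length trend removed at 0.28 (SE 0.15, adjusted p = 0.35). The size of both therefore depended on that setting, and neither was called in it. The better counted Gbp2 was at 0.15 (95% interval -0.30 to 0.60) and Gbp2b at -0.0039 (95% interval -0.54 to 0.53).

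The siRNAs were then compared with IFN-γ. No member was called, 0 of 9, and 0 of 9 had an unadjusted p below 0.05, where 0.429% of genes were called and 14.5% had an unadjusted p below 0.05 (edgeR). The unadjusted count was 1 of 9 with the length trend removed, where 28.8% of genes were below that level, and 1 of 9 without siR_Ctrl + IFN-γ replicate 3, where 17.7% were. DESeq2, which called 5.46% of genes, and edgeR with the length trend removed, which called 12.7%, also called 0 members. The log2 differences, siR_Nostrill + IFN-γ over siR_Ctrl + IFN-γ, ran from -0.09 for Gbp2 (95% interval -0.49 to 0.31) to 0.27 for Gbp7 (95% interval -0.13 to 0.68). Without siR_Ctrl + IFN-γ replicate 3, Gbp7 was at 0.47 (adjusted p = 0.22, edgeR). Gbp2b was at 0.10 (95% interval -0.36 to 0.56), Gbp3 at -0.06 (95% interval -0.33 to 0.21) and Gbp5 at -0.05 (95% interval -0.42 to 0.32). On chromosome 5, Gbp4 was at -0.05 (95% interval -0.37 to 0.28), Gbp6 at 0.02 (95% interval -0.26 to 0.31), Gbp9 at -0.01 (95% interval -0.27 to 0.25) and Gbp10 at 0.01 (95% interval -0.24 to 0.25). The TPM ranges did not overlap for 0 of 9 members, beside 19.5% of all genes tested.

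**Figure D5:**
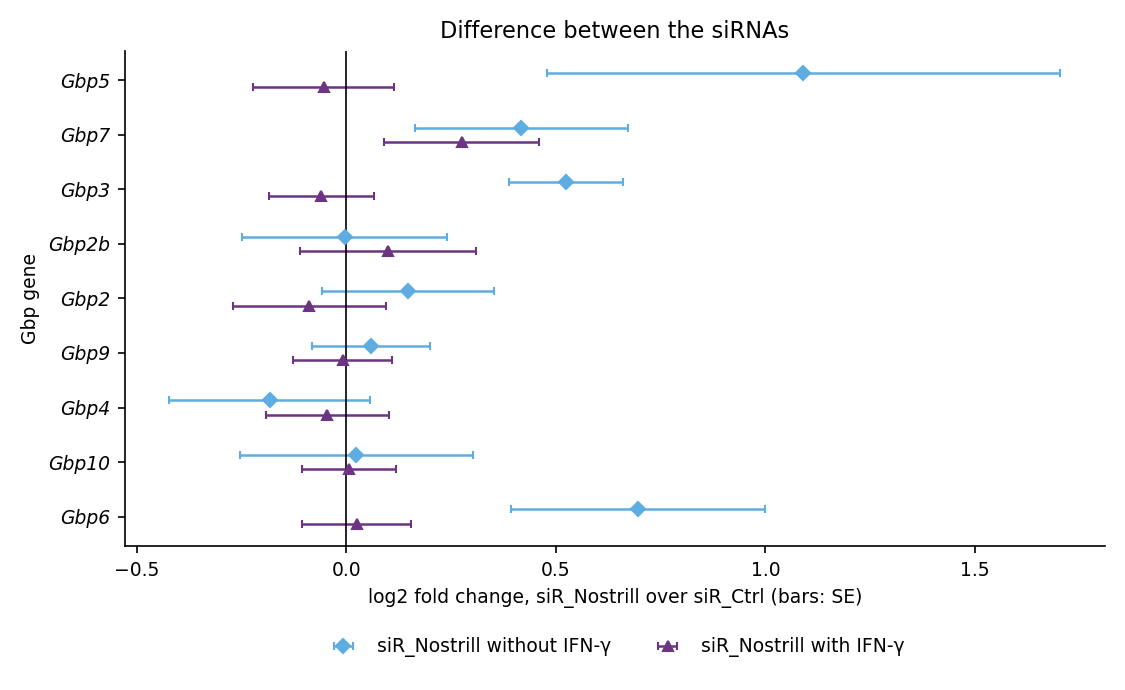
Fitted log2 difference of each Gbp gene, siR_Nostrill over siR_Ctrl, without IFN-γ (diamonds) and with it (triangles), with bars of 1 SE. Points with IFN-γ lie between -0.09 and 0.27, and those without it between -0.18 for Gbp4 and 1.09 for Gbp5.

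The difference between the IFN-γ rises under the siRNAs was tested as an interaction, and no member was called. That was 0 of 9, in a test that called 0% of genes by edgeR, 0% by DESeq2 and 0% with the length trend removed, while 10.7% of genes had an unadjusted p below 0.05 in edgeR. Gbp3 was the 1 member below that level, at -0.58 (SE 0.18, adjusted p = 0.43, edgeR). Its adjusted p ranged from 0.145 to 0.798 over the alternatives. Its rise was 4.98 in siR_Ctrl cells and 4.40 (SE 0.15) in siR_Nostrill cells. The levels with IFN-γ behind these rises differed by -0.06, and those without IFN-γ by 0.52. The remaining members had interaction values from -1.15 for Gbp5 to 0.14 for Gbp4. The value of Gbp5 rests on 6 reads in siR_Ctrl and 13 in siR_Nostrill cells without IFN-γ, and that of Gbp10 on 27 in each. Both passed the low-count filter through the libraries with IFN-γ, and the counts and medians of 9 members here include them. With limma on log2(FPKM + 1) the rises of Gbp5 were 2.77 in siR_Ctrl and 2.71 in siR_Nostrill cells. That scale flattens levels this low at rest, and on log2(FPKM + 0.1) the rises were 5.48 and 5.08. Across genes, length and the interaction value had a Spearman correlation of 0.65. With the length trend removed, 2 of 9 members had an unadjusted p below 0.05, where 19.1% of genes did, and the members' median was -0.35 in place of -0.14. Without siR_Ctrl replicate 3 the count was also 2 of 9, where 10.9% of genes were below that level, and the median was -0.40. Other settings moved the median the other way, to -0.011 without siR_Ctrl replicate 2, to -0.047 when replicate 3 of siR_Ctrl + IFN-γ was left out, and to 0.0041 with limma on log2(FPKM + 0.1) and 0.045 with limma on log2(FPKM + 1), where 6 of 9 members were above 0. These limma scales moved other genes too. The median over all genes was 0.085 and 0.074 in these fits, above the members' medians, and 0.0079 in edgeR. With limma on log2(FPKM + 1) for all genes it was 0.023, below the members' 0.045. The sign of a limma median is therefore not read as a direction of the members, whose median depended on the setting.

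The genes around the family were read from lists chosen with earlier results of these data known. Of 16 genes tested from the IFN-γ receptor, JAK, STAT and IRF genes, 10 were higher and 0 lower with IFN-γ in siR_Ctrl cells, with a median log2 fold change of 1.89. Over all genes tested, 4.71% were higher and 0.748% lower there. Irf1 rose by 3.57 (SE 0.10, adjusted p = 8.5e-10, edgeR), from 76.9 ± 7.05 to 823 ± 104 TPM, Stat2 by 3.18 (SE 0.11), and Socs1, a feedback inhibitor of JAK kinases, by 2.999 (SE 0.16). Of the same list, Irf9 was the 1 gene called without IFN-γ in siR_Nostrill against siR_Ctrl cells, at 0.58 (SE 0.09, adjusted p = 0.0357, edgeR). Of all genes tested, 0.218% were called. No gene at all was called with the groups compared alone or without siR_Nostrill + IFN-γ replicate 2. The same held without siR_Ctrl replicate 1 and without any 1 siR_Nostrill replicate, so the Irf9 call was lost there. With IFN-γ the 1 called gene of the list was the receptor chain Ifngr2, at 0.54 (SE 0.09, adjusted p = 0.0375, edgeR), where 0.429% of all genes tested were called. No gene was called with the groups compared alone or without siR_Nostrill + IFN-γ replicate 1 or 3, so the Ifngr2 call was lost there.

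Among the other interferon-inducible GTPases, which share the vacuole with GBPs, 11 of 14 tested were higher and 0 lower with IFN-γ in siR_Ctrl cells, with a median log2 fold change of 6.83. The largest fitted rises were those of Iigp1 at 9.70 (SE 0.50), Tgtp2 at 9.49 (SE 0.59) and Tgtp1 at 9.45 (SE 0.50), all near 0 at rest. Iigp1 went from 0.153 ± 0.266 to 122 ± 25.7 TPM, Tgtp2 from 0.257 ± 0.445 to 177 ± 29.8 TPM and Tgtp1 from 0.253 ± 0.388 to 166 ± 20.6 TPM. The SDs at rest exceed the means, so the sizes and order of these rises are uncertain. In siR_Nostrill cells the rises were 10.8 (SE 0.54) for Iigp1, 13.6 (SE 0.83) for Tgtp2 and 11.5 (SE 0.58) for Tgtp1. Of the constitutive relatives of the dynamin superfamily, 0 of 10 were called in any of the 5 comparisons (edgeR), and 1 had an unadjusted p below 0.05 for IFN-γ in siR_Ctrl cells, as did 14.6% of all genes tested. The shares of all genes called were 4.71% higher and 0.748% lower for IFN-γ in siR_Ctrl cells and 5.24% and 1.55% in siR_Nostrill cells, so a list of 10 genes with 0 called is not told apart from the genes at large.

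Genes that act on or with GBPs were read from 4 further lists. Of the prenylation and CaaX processing genes, which attach and trim the lipid anchor of some GBPs, 0 of 8 were called with IFN-γ in siR_Ctrl cells, with 2 at an unadjusted p below 0.05 (edgeR). Of the autophagy conjugation genes, which are needed to load GBPs on vacuoles, 0 of 10 were called, with 1 at an unadjusted p below 0.05 (edgeR). Lists of this size with 0 called are not told apart from all genes tested, of which 14.6% had an unadjusted p below 0.05. In siR_Nostrill + IFN-γ against siR_Ctrl + IFN-γ cells, 1 of these 10 was lower, Atg3, at -0.75 (SE 0.13, adjusted p = 0.0389, edgeR). Of all genes tested, 0.429% were called there in either direction. No gene was called lower with the groups compared alone, without siR_Ctrl + IFN-γ replicate 1 or without any 1 siR_Nostrill + IFN-γ replicate. The Atg3 call was lost in each of these fits. Of 10 inflammasome and pyroptosis genes on the list, 7 were analysed and 4 passed the low-count filter. Casp1, Aim2 and Nlrp3 did not pass, at 0.637, 0.233 and 0.107 TPM in siR_Ctrl + IFN-γ cells. With IFN-γ in siR_Ctrl cells, 4.71% of all genes tested were higher and 0.748% lower. Of the 4 tested from this list, 3 were higher and 0 lower. They were Casp4, the sensor of cytosolic lipopolysaccharide, at 2.06 (SE 0.14), the pore-forming Gsdmd at 0.87 (SE 0.16) and Ninj1, which ruptures the plasma membrane, at 0.82 (SE 0.16). In siR_Nostrill cells Casp4 was the 1 called gene of these 4, with Gsdmd at 0.42 (SE 0.16, adjusted p = 0.157, edgeR) and Ninj1 at 0.37 (SE 0.16, adjusted p = 0.214, edgeR). Across genes, length and the change with IFN-γ had a Spearman correlation of -0.42 in siR_Ctrl and 0.48 in siR_Nostrill cells. The rises of Gsdmd and Ninj1 were not called different between the siRNAs, with an interaction of -0.45 for each (adjusted p = 0.43, edgeR). That decides little, since this test called 0% of genes, and the part of length in these values was not tested. Of 9 ubiquitin and galectin partners tested, 3 were higher and 0 lower with IFN-γ in siR_Ctrl cells, beside the same 4.71% and 0.748% of all genes. They were the ubiquitin ligase Trim21 at 3.66 (SE 0.10), Lgals9 at 0.63 (SE 0.10) and Lgals8 at 0.54 (SE 0.11).

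The pattern of the family over the 12 libraries was most like that of Parp9, Trim21, Irgm2, Irgm1 and Mpeg1 among 11891 genes compared. Pearson's r between each gene and the mean of the 9 members, on centred log2 CPM over 12 libraries, was 0.9995 for Parp9, 0.9995 for Trim21, 0.9991 for Irgm2, 0.9991 for Irgm1 and 0.9986 for Mpeg1. The libraries fall into those with and those without IFN-γ, so r mostly describes that split, and 380 genes had an r above 0.9. Mpeg1, which encodes the pore-forming perforin-2, went from 0.00667 to 3.29 TPM, and Irgm1 from 15.1 to 366 TPM.

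The genes next to the clusters were read in the same fit. Of the 5 nearest listed genes on each side of each cluster, 16 of 20 were tested and 4 were called for IFN-γ in siR_Ctrl cells. All 4 were on chromosome 3, 63011 to 3592501 bases from the cluster. Of these 16, 3 were higher and 1 lower, where 4.71% of all genes tested were higher and 0.748% lower. Kyat3, an aminotransferase gene 63011 bases past Gbp2, rose by 1.33 (adjusted p = 0.0026, edgeR), from 1.93 to 4.80 TPM. Lmo4, a LIM-domain gene 1550522 bases away, rose by 1.44 (adjusted p = 2.71e-06, edgeR) and Rap1gds1, 3421706 bases away on the other side, by 0.46 (adjusted p = 0.0267, edgeR). Tspan5, 3592501 bases away, fell by 0.30 on the log2 scale (adjusted p = 0.0367, edgeR). On chromosome 5 the tested neighbours had adjusted p of 0.167 and above, with Zfp951, the nearest before the cluster, at 0.13 and Lrrc8b, the nearest after it, at -0.14.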

How the data were processed

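The authors deposited, for each of 12 libraries, an estimated count of reads per gene, not normalized, with FPKM and TPM per gene. The deposited FPKM had been divided by length and sequencing depth, and the deposited TPM in addition brought to a common total. Reads had been filtered with SOAPnuke, mapped with HISAT2 and Bowtie2 (GRCm38.p6) and refined with GATK. The counting tool and its use of strand are not given in the sources used here, and RPKM is what the methods call the FPKM columns. The study describes biological triplicates, and nothing else ties libraries to separate cultures.

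Estimated counts were already whole for 90.6% to 91.6% of genes and were otherwise rounded. They were tested with edgeR 4.0.16 in R 4.3.3 (quasi-likelihood test, TMM, filterByExpr, all 12 libraries fitted together, Benjamini-Hochberg over 11900 genes, threshold 0.05). CPM uses TMM library sizes. Levels are TPM as deposited, with no test. The workflow was tested on simulated data.

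Alternatives were DESeq2 1.42.0, its size factors in edgeR, no filter or a mean of at least 5 CPM, the groups compared alone, a replicate block, limma 3.58.1 on log2(FPKM + 1) or log2(FPKM + 0.1) (mean FPKM of at least 0.5, or all genes), removal of a length trend (lowess, span 0.3) and each library left out. The members, gene lists and tests were chosen with earlier results of these data known. Genes named were every member, up to 3 called genes with the largest change per list with Irf1, the called neighbours of the clusters, and the 5 genes most like the family. Irf9, Ifngr2, Atg3, Zfp951 and Lrrc8b were named after their values were seen. A gene that the rule names is not reported here. Shared windows of 100 bases were taken from the members' protein-coding transcripts in GENCODE vM21 and sought in transcripts of any type from other genes.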

Additional observations from a re-analysis of the deposited data

How the results depend on the processing

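All 9 rises with IFN-γ kept their direction and call under both siRNAs, in each alternative and with each library left out. Their sizes moved, with a median in siR_Ctrl cells of 6.65 as reported, 6.29 with limma on log2(FPKM + 0.1) and 4.43 on log2(FPKM + 1), where Gbp5 went from 7.25 to 2.77. Without IFN-γ, the count of Gbp genes called for siR_Nostrill against siR_Ctrl was 0 as reported, 1 with DESeq2 and 1 with the length trend removed, Gbp3 in both. With IFN-γ and for the interaction, 0 were called in every setting. With IFN-γ, no gene at all was called with the groups compared alone or without siR_Nostrill + IFN-γ replicate 1 or 3. Ranks of the 9 members by mean level were the same in FPKM and TPM in all 4 groups. Same-numbered libraries did not deviate together (correlations of -0.495 to 0.725), so the numbers were not taken as pairs. With the replicate block, the Gbp genes called were 9, 9, 0, 0 and 0 over the 5 comparisons, as without it.

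The sign changes were all in log2 differences that no setting called. For siR_Nostrill without IFN-γ, Gbp2b turned to 0.0024 with no filter, 0.0055 with the 5 CPM minimum, 0.019 with the replicate block, 0.019 with limma on log2(FPKM + 1), for filtered or all genes, and 0.042 with a pseudocount of 0.1. In the same limma settings Gbp9 was at -0.016, -0.016 and -0.022. With IFN-γ, these limma settings gave 0.000505, 0.000505 and 0.000507 for Gbp3, 0.023, 0.023 and 0.024 for Gbp4, and 0.029, 0.029 and 0.030 for Gbp9. Removal of the length trend gave -0.030 for Gbp6 and -0.025 for Gbp10. For the interaction, limma gave 0.0061 for Gbp6 (pseudocount 1), 0.21, 0.21 and 0.0041 for Gbp7, 0.045, 0.045 and 0.053 for Gbp9, and 0.065, 0.065 and 0.049 for Gbp10, and removal of the length trend gave -0.045 for Gbp4. The same limma settings moved the median over all genes, with IFN-γ to 0.052, 0.018 and 0.062 from -0.0026 in edgeR. For the interaction they moved it to 0.074, 0.023 and 0.085 from 0.0079. A sign change in limma is therefore not read as a change of the member. The cause was not tested.

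With 1 library left out, ranges that crossed 0 without IFN-γ were -0.079 to 0.44 for Gbp2, -0.19 to 0.44 for Gbp2b, -0.39 to 0.041 for Gbp4, -0.068 to 0.15 for Gbp9 and -0.26 to 0.22 for Gbp10. With IFN-γ they were -0.15 to 0.022 for Gbp4, -0.17 to 0.080 for Gbp5, -0.040 to 0.098 for Gbp6, -0.083 to 0.029 for Gbp9 and -0.041 to 0.066 for Gbp10. For the interaction they were -0.34 to 0.29 for Gbp2b, -0.086 to 0.34 for Gbp4, -0.40 to 0.055 for Gbp7, -0.16 to 0.058 for Gbp9 and -0.21 to 0.27 for Gbp10. Depth limits Gbp5, Gbp6 and Gbp10 most, with 1 to 17.95 reads per library without IFN-γ.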
